A study of Homo sapiens with 5 samples.

Results

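Mitotic cells were selected on their own RNA counts in 5 single-cell libraries made from MDA-MB-468, a human breast cancer cell line. Barcodes with 5000 or more UMIs (unique molecular identifiers, each marking 1 captured RNA molecule) and 1000 or more genes were kept as cells, unless mitochondrially encoded genes gave over 20% of their UMIs. Its mitotic score was the summed UMIs of CCNB1, CDC20, PLK1, AURKA, CENPF, UBE2C, HMMR and CENPE per 10,000 UMIs of the cell. The cut was the score that 90% of the untreated cells at 0 h did not exceed, 24.4, and cells above it were called mitotic in all 5 libraries. This gave 1477 mitotic cells of 14911 kept cells, and the other 13434 kept cells are called the other cells below. The class is a range of a score and not a cell type, and the levels of these 8 genes in it follow from how it was chosen. Cells in mitosis were not separated from cells in G2, the phase before it.

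The study exposed the cells to PF0517515, an inhibitor of acetyl-CoA carboxylase, which makes the malonyl-CoA that fatty acid synthesis needs. Its groups are untreated cells at 0 h, cells after 6 h of PF0517515, untreated cells at 72 h, cells after 72 h of PF0517515, and cells left to recover after 72 h of PF0517515. All cells were detached with trypsin and captured with the same 3' droplet chemistry. Each group is 1 library, so no difference between groups could be set against a spread between cultures, and no test was made. Intervals given below are 95% intervals for counting error only. No dose, vehicle or length of recovery is given by the labels.

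A dividing cell raises the RNA of a shared set of genes late in the cycle. Cyclin B with its kinase CDK1 drives entry into mitosis, the Aurora and Polo-like kinases build the spindle, the checkpoint proteins BUB1 and TTK delay separation until chromosomes are attached, and the anaphase-promoting complex with CDC20 and the ubiquitin-conjugating enzyme UBE2C then removes cyclin B and securin. Many of these genes carry a short promoter element called the CHR, read by the MuvB complexes together with MYBL2 and FOXM1, and CCAAT boxes, read by NF-Y.

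Promoters of 6 genes that were higher in mitotic than in other cells are shown as a selection. For 4 of the 6 this follows from the choice of cells, since they are score genes. Each line gives the 150 bases before the start site, 5' to 3' in the direction of the gene, from the RefSeq promoter table on GRCh38.p14. Capitals mark matches to the CHR (TTTGAA, or TTCAAA on the other strand) and to the CCAAT box (CCAAT, or ATTGG on the other strand). The 4 genes of the score come first, and DLGAP5 and KIF20A are not in the score.
CCNB1, chr5:69167000-69167149, plus strand: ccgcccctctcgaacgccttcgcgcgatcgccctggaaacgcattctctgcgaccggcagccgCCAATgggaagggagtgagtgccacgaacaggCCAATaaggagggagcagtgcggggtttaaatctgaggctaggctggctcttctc
CDC20, chr1:43358831-43358980, plus strand: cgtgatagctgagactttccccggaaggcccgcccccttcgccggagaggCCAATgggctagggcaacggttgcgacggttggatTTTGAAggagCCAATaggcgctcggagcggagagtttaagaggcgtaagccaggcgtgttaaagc
PLK1, chr16:23678739-23678888, plus strand: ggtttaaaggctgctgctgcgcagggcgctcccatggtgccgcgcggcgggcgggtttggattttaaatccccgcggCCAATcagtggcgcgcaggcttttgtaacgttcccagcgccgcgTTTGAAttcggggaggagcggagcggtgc
HMMR, chr5:163460482-163460631, plus strand: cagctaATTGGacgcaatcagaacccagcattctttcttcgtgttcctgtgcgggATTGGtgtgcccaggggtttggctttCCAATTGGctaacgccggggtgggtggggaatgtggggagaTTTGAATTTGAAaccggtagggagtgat
DLGAP5, chr14:55191586-55191735, minus strand: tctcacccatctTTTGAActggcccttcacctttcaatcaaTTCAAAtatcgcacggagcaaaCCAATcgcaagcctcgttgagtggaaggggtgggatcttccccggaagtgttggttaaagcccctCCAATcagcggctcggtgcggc
KIF20A, chr5:138178962-138179111, plus strand: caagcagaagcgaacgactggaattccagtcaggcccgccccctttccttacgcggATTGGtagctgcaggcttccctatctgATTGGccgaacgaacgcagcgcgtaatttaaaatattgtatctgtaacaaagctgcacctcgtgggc

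CDC20 and PLK1 each held 1 CHR match in these 150 bases, while DLGAP5 held 2 and HMMR held 2 side by side. CCNB1 and KIF20A held 2 CCAAT matches each and no match to these CHR letters. Of the 8 score genes, 6 were in the promoter table, and in windows of 300 bases (250 before the start to 50 after it) 4 of the 6 held a CHR match and 5 a CCAAT match. CENPE, a score gene whose promoter is not shown, held neither match in its window. AURKA and UBE2C had no entry.

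The share of mitotic cells was lowest after 72 h of inhibitor. It was 10.0% of 3700 kept cells in the 0 h untreated library, where the rule sets it. It was 10.4% (311 of 2996 cells, exact binomial interval 9.31 to 11.5) after 6 h of inhibitor and 11.5% (331 of 2885, 10.3 to 12.7) in the 72 h untreated library. After 72 h of inhibitor it was 4.12% (77 of 1868, 3.27 to 5.13), and in the recovery library it was 11.2% (388 of 3462, 10.2 to 12.3). The intervals of the 72 h inhibitor library and of each other library outside the one that set the cut did not overlap. The 3 libraries at 6 h of inhibitor, 72 h untreated and recovery had overlapping intervals.

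Because a shallow cell can fail a threshold by counting noise, every kept cell was also thinned at random to 5000 UMIs and the percentile taken again. Then 8.97%, 8.88%, 10.1%, 3.16% and 9.56% of cells passed, in the order 0 h untreated, 6 h inhibitor, 72 h untreated, 72 h inhibitor and recovery, the order used for all lists of 5 values below. No cell dropped out, since all kept cells had at least 5000 UMIs. In the 72 h inhibitor library 59 thinned cells passed, and 41 of them were among its 77 mitotic cells. That library's share was thus the lowest at equal depth too, although part of the cells past the threshold were different ones.

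**Figure D1:**
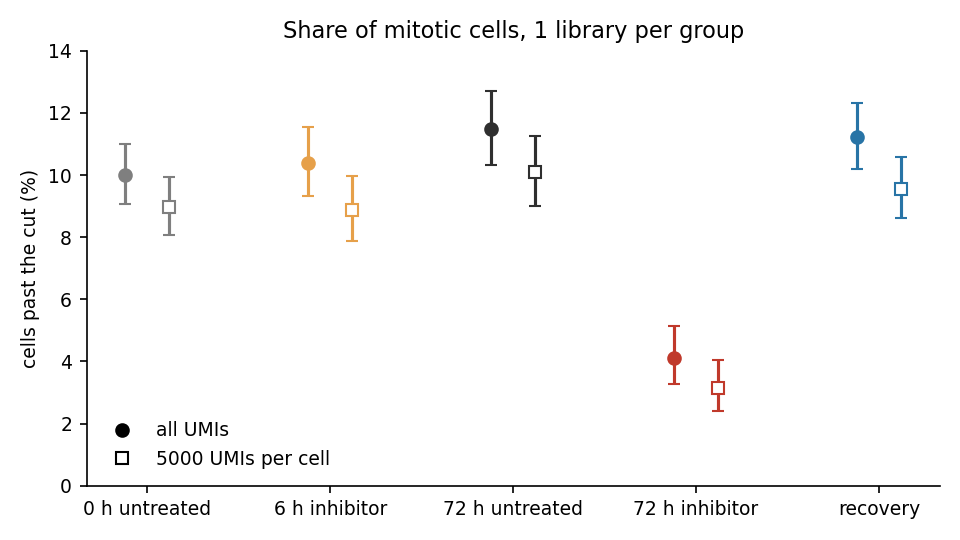
Percent of kept cells past the cut (y axis) in each of the 5 libraries (x axis), with all UMIs (filled circles) and with every cell thinned to 5000 UMIs (open squares); bars are exact 95% binomial intervals for counting error. The 72 h inhibitor library lies at 4.12% and 3.16%, below the other 4 libraries, which lie between 8.88% and 11.5%.

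The 72 h inhibitor library also had the lowest median score, while its highest score, 62.4, lay above those of the 0 h untreated, 6 h inhibitor and 72 h untreated libraries. The median score over all kept cells was 4.78, 3.83, 4.29, 0.698 and 5.37 score UMIs per 10,000. After thinning, 54.7% of the 72 h inhibitor cells held no UMI of the 8 genes, against 20.4% to 28.7% in the other libraries. Cells between 50% of the cut and the cut made up 7.50% of that library and 14.3% to 15.8% of the others.

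Mitotic cells of the 72 h inhibitor library also lay closer to the cut. Their median score was 29.4, against 33.2, 30.8, 33.2 and 34.1 in the 0 h untreated, 6 h inhibitor, 72 h untreated and recovery libraries. Only 10 of the 77 (12.99%, exact binomial interval 6.41 to 22.6) exceeded 1.5 times the cut. In the other libraries 121 (32.7%), 49 (15.8%), 122 (36.9%) and 151 (38.9%) did. The 6 h inhibitor library was thus near the 72 h inhibitor library by this measure, although its share of mitotic cells was not low. Within 10% of the cut, from 22.0 to 26.9, lay 80 cells below and 56 above it in the 0 h library, 63 and 62 at 6 h, 68 and 58 in the 72 h untreated library, 20 and 19 in the 72 h inhibitor library, and 71 and 62 in recovery.

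**Figure D2:**
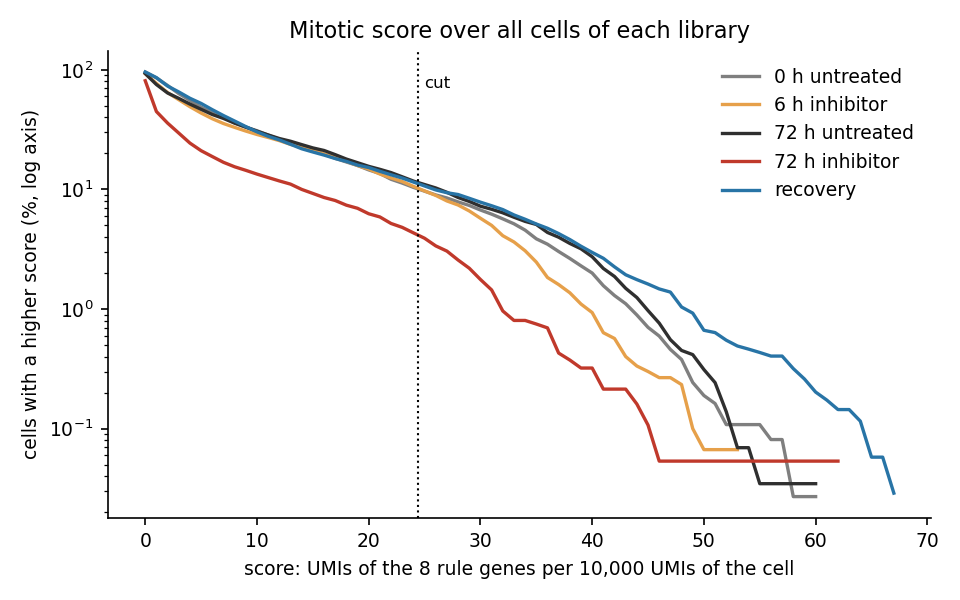
Percent of kept cells with a higher score (y axis, log) against the mitotic score in UMIs of the 8 score genes per 10,000 UMIs (x axis), 1 line per library, with the cut at 24.4 drawn as a vertical line. The 72 h inhibitor line lies below the other 4 at the cut, with 4.12% of its cells past it.

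Depth differed between mitotic and other cells, and not equally in each library. Median UMIs per mitotic cell were 38137, 44563, 38636, 43097 and 30264, which was 1.34, 1.36, 1.36, 1.02 and 1.15 times the median of the other cells of the same library. In the 72 h inhibitor library 11 of the 77 mitotic cells (14.3%) held under 10,000 UMIs, against 3.57% of its other cells. The part of this in the results was not tested. Doublets were not removed. Of the mitotic cells, 28, 27, 24, 2 and 22 were among the 5% of their library with the highest UMI counts. Libraries shared 27 barcodes over all pairs, and 1 of these was a mitotic cell in both, at 6 h and in recovery. The median share of mitochondrially encoded UMIs was 2.74% in mitotic and 3.32% in other cells after 72 h of inhibitor, and 5.79% and 6.23% in the 72 h untreated library.

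Epithelial marker genes were present in mitotic and other cells alike, the line being a carcinoma. Thinned cells held a median of 112, 92, 80, 64 and 80 epithelial marker UMIs per 10,000 in mitotic cells and 116, 106, 88, 68 and 76 in other cells. A list of 14 markers of blood, vessel and stromal cells had a median of 0 in every group, and none of its genes reached 10 counts per 1000000 UMIs (CPM).

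The genes of the score are described here without a test, since they chose the cells. All levels below are CPM of the UMIs summed over the cells of a class, and fold values are ratios of 2 such levels. CCNB1, the B-type cyclin that activates CDK1, was at 413, 366, 500, 360 and 628 CPM in mitotic cells and at 85.8, 63.3, 89.9, 33.7 and 85.5 CPM in other cells. After thinning, 85.4%, 82.3%, 90.9%, 71.4% and 93.3% of mitotic cells held a CCNB1 UMI, against 27.7%, 20.7%, 27.4%, 11.7% and 25.5% of other cells. Without thinning the shares were 93.5% to 100% and 43.1% to 62.6%.

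PLK1, the Polo-like kinase, stood at 206, 169, 159, 130 and 156 CPM in mitotic cells and 31.0, 25.9, 25.5, 12.7 and 29.0 CPM in other cells. CDC20, the activator of the anaphase-promoting complex, stood at 449, 352, 411, 402 and 484 CPM against 117, 82.1, 90.2, 48.9 and 110.1 CPM. AURKA, the centrosomal Aurora kinase, stood at 268, 223, 239, 231 and 305 CPM against 40.4, 34.0, 36.5, 25.4 and 47.7 CPM. Mitotic cells of the 72 h inhibitor library had the lowest PLK1 of the 5, but not the lowest CDC20 or AURKA. Their CCNB1 was also lowest, but its counting interval (339.3 to 381.2 CPM) overlapped that of the 6 h inhibitor library (356.3 to 376.6 CPM).

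UBE2C, which ubiquitinates cyclin B, was at 603, 559, 608, 654 and 859 CPM in mitotic cells and 104, 105, 109, 80.3 and 256 CPM in other cells. CENPF and CENPE, which act at the kinetochore, were lower in mitotic cells of recovery and of 72 h of inhibitor than in the other 3 libraries. CENPF was at 999.5, 1046, 1021, 747 and 752 CPM in mitotic cells, and CENPE at 235, 221, 255, 166 and 137 CPM. HMMR, a microtubule-binding spindle protein, was at 264, 246, 272, 303 and 193 CPM. In recovery the summed score thus held more UBE2C and CCNB1, and less CENPF, CENPE and HMMR, than in the 72 h untreated library.

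Outside the score, 89 genes were more than 2-fold higher in mitotic than in other cells in all 5 libraries, of 7624 genes measured in all 5 (at least 10 CPM in either class). Of the 89, 69 were in the lists of mitotic genes and 0 in the S phase list. Over all genes, 1.49% were more than 2-fold higher and 0.647% more than 2-fold lower in mitotic cells at 0 h. The shares were 1.42% and 0.667% at 6 h, 1.8% and 0.419% in the 72 h untreated library, 2.91% and 1.94% in the 72 h inhibitor library, and 1.75% and 0.596% in recovery. The same cells chose and supplied these counts, so they are a description.

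The genes named next had the largest values of their smallest ratio over the 5 libraries. PIF1, a DNA helicase, was at 35.2, 33.3, 25.02, 27.5 and 20.1 CPM in mitotic cells and at 2.39, 4.02, 2.67, 1.53 and 2.90 CPM in other cells. KIF20A, a kinesin of the cleavage furrow whose promoter is shown above, was at 79.2, 62.9, 80.4, 65.9 and 153 CPM against 13.6, 9.78, 11.5, 4.44 and 20.1 CPM. Both were lowest in other cells of the 72 h inhibitor library, so that their log2 ratios there, 4.17 for PIF1 and 3.89 for KIF20A, exceeded those of the other 4 libraries.

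NEK2, a centrosome kinase, was highest in recovery. Its level in mitotic cells was 102, 116, 169, 231 and 339 CPM, and 18.8, 20.6, 24.8, 21.7 and 52.9 CPM in other cells. DLGAP5, a spindle-assembly protein, was at 192, 186, 239, 200 and 235 CPM against 41.5, 39.0, 48.1, 21.4 and 52.7 CPM. BUB1, a kinase of the spindle checkpoint, was at 89.8, 103, 112, 138 and 105 CPM against 20.4, 22.9, 22.6, 19.9 and 21.6 CPM. ASPM, which focuses spindle poles, was at 290, 254, 327, 160 and 184 CPM against 56.5, 65.9, 55.3, 17.4 and 26.3 CPM. ASPM in mitotic cells was lower after 72 h of inhibitor and in recovery than in the other 3 libraries, while BUB1 was highest after 72 h of inhibitor. DEPDC1, KPNA2, KIF14, KNSTRN, PIMREG and GAS2L3 completed the 12 genes that the naming rule gave.

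By group, the chromosomal passenger complex, which corrects spindle attachments, was higher in mitotic cells with median log2 ratios of 1.77, 1.46, 1.77, 2.40 and 1.6. All 4 genes, AURKB, INCENP, BIRC5 and CDCA8, passed 2-fold in each library. Its catalytic kinase AURKB was at 89.6, 62.5, 105.0, 70.8 and 130.7 CPM in mitotic cells and 28.6, 26.9, 31.5, 16.5 and 54.4 CPM in other cells. Spindle motors and microtubule proteins had medians of 1.64, 1.55, 1.80, 2.41 and 1.66, and 27, 27, 29, 31 and 29 of 32 genes passed 2-fold. Cytokinesis genes had medians of 1.41, 1.28, 1.45, 2.44 and 1.33. Condensin and chromosome structure genes had medians of 1.32, 1.22, 1.57, 2.23 and 1.52. Every one of these medians was largest in the 72 h inhibitor library.

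Other groups of the mitotic lists separated less. Centromere and kinetochore genes had medians of 0.66, 0.52, 0.87, 1.20 and 0.61, and 9 of 31, 8 of 30, 12 of 31, 17 of 28 and 7 of 29 measured genes passed 2-fold. Subunits of the anaphase-promoting complex and separation genes had medians of 0.17, 0.15, 0.29, 0.12 and 0.05, and cohesin genes 0.04, 0.04, 0.27, 0.23 and 0.18. Over all genes the medians were 0.03, 0.01, 0.05, -0.01 and -0.04. Over the 161 genes of the mitotic lists together, medians were 1.03, 0.94, 1.28, 1.83 and 1.15 over the 152 to 158 genes measured, and 79, 76, 91, 104 and 81 passed 2-fold upward. After 72 h of inhibitor the levels of most genes named above were lowest in the other cells, which are the denominator of these ratios.

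**Figure D3:**
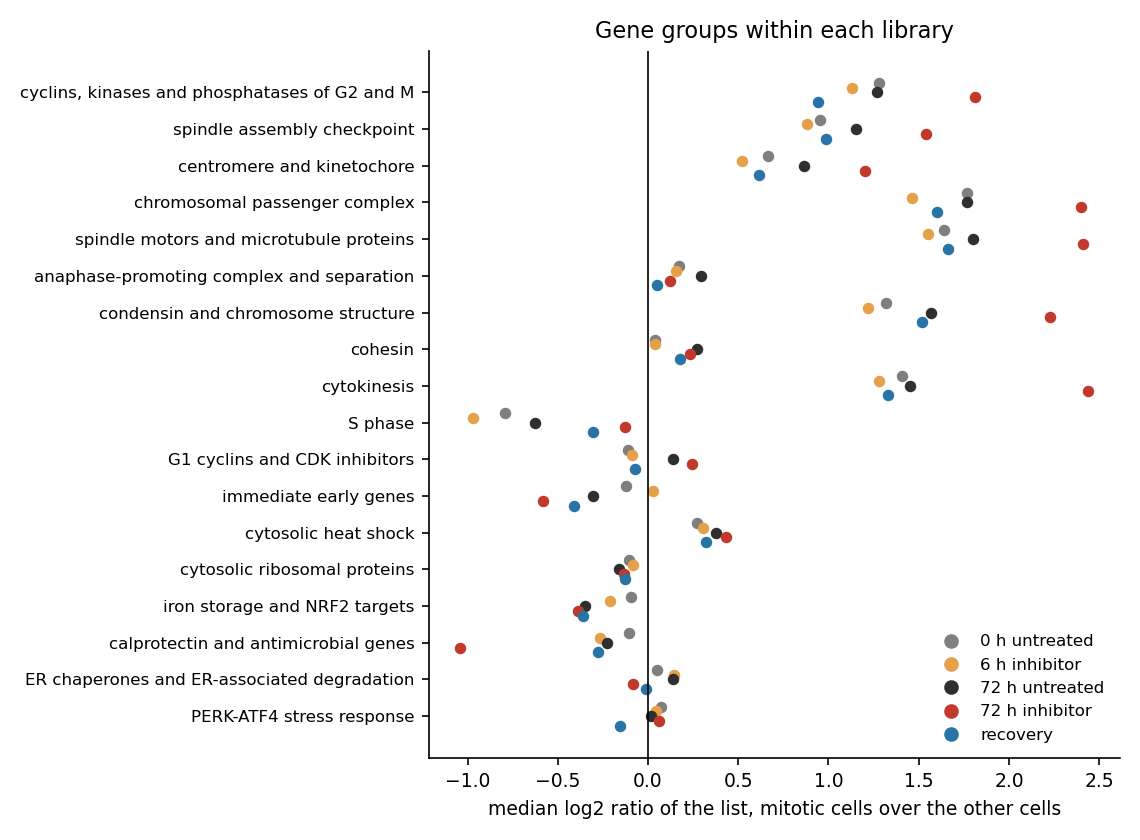
Median log2 ratio of each gene group in mitotic over other cells (x axis), 1 row per group and 1 coloured point per library, with 0 drawn as a line. Spindle, passenger, cytokinesis and condensin groups lie between 1.22 and 2.44, with the 72 h inhibitor library furthest right, and the S phase group lies at -0.97 to -0.13.

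S phase genes were lower in mitotic cells, with the smallest separation after 72 h of inhibitor. Their median log2 ratio was -0.79, -0.97, -0.63, -0.13 and -0.31, and 14 of 41, 19 of 41, 7 of 39, 4 of 33 and 4 of 37 genes were more than 2-fold lower. Only MCM6, MCM5 and E2F1 were more than 2-fold lower in all 5 libraries, named here after their values were seen. MCM6, a subunit of the replicative helicase, was at 14.2, 11.98, 7.06, 9.05 and 10.5 CPM in mitotic cells and 71.0, 70.0, 41.4, 23.9 and 30.4 CPM in other cells. MCM5, another subunit, was at 20.5, 12.1, 5.83, 4.68 and 5.94 CPM against 52.5, 45.3, 23.3, 13.6 and 14.1 CPM. E2F1, the transcription factor of S phase entry, was at 10.9, 6.75, 7.75, 7.49 and 6.02 CPM against 48.0, 44.1, 28.2, 16.2 and 18.6 CPM. Per thinned cell, the S phase list held a median of 20, 16, 14, 12 and 12 UMIs per 10,000 in mitotic cells and 30, 28, 16, 10 and 14 in other cells. The 72 h inhibitor library was the only one of the 5 in which that median was higher in mitotic than in other cells.

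Outside the cycle, cytosolic heat shock genes were slightly higher in mitotic cells of all 5 libraries. Medians were 0.27, 0.31, 0.38, 0.43 and 0.32, and 11 of 13 genes at 0 h and 13 of 13 in each other library were higher. HSPA8, the constitutive HSP70 chaperone, was at 1203, 608, 602, 502 and 800 CPM in mitotic cells and 891, 393, 429, 304 and 505 CPM in other cells. Ribosomal protein genes were slightly lower, with medians of -0.11, -0.08, -0.16, -0.13 and -0.13, and 30, 28, 30, 26 and 30 of 30 genes were lower. FTH1, the heavy chain of the iron store ferritin, was at 6723, 6441, 6864, 19170 and 6522 CPM against 8520, 8355, 10060, 26710 and 9205 CPM. These list medians and FTH1 had the same sign in each library and were under 2-fold.

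CHR letters were found more often in promoters of mitotic genes than in all promoters. In windows of 300 bases, on both strands and with overlapping matches counted separately, 15.4% of all 27305 promoters held a CHR match, 35.7% a CCAAT match and 6.08% both. All promoters include those of genes not measured here. Of the genes measured in all 5 libraries, 6226 matched the promoter table, and 9.69% held a CHR match, 38% a CCAAT match and 4.47% both. Among the mitotic lists, 138 of 161 genes matched the promoter table, and 72 (52.2%) held a CHR match, 86 (62.3%) a CCAAT match and 51 both. Of the 89 genes, 75 matched, and 49 (65.3%) held a CHR match. Of the 42 S phase genes, 33 matched, and 1 (3.03%) held a CHR match while 22 (66.7%) held a CCAAT match. All 9 matched cytokinesis genes, 11 of 14 condensin genes and 20 of 29 spindle genes held a CHR match, against 2 of 9 cohesin genes and 4 of 20 anaphase genes. Among the promoters of the score genes and mitotic lists, 0 had a CHR match overlapping a CCAAT match.

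Measured genes with both matches numbered 278, among them 4 score genes, which are high by the selection. Of the 278, 18%, 19.1%, 21.2%, 25.5% and 19.8% were more than 2-fold higher in mitotic cells. Among genes with a CCAAT but no CHR match (2089 genes, including the score gene CCNB1) the shares were 1.1%, 1.01%, 1.39%, 2.49% and 1.05%. Within the mitotic lists, the 68 genes with a CHR match had median log2 ratios of 1.41, 1.29, 1.62, 2.37 and 1.51, and the 61 without had 0.32, 0.29, 0.49, 0.90 and 0.43. A match is a string of letters and was not tested as a binding site.

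Between libraries, mitotic cells after 72 h of inhibitor were compared with mitotic cells of the 72 h untreated library. Of 9334 genes measured, 3.12% were more than 2-fold higher and 11.9% more than 2-fold lower, which is 291 and 1108 genes. The median gene lay at -0.19. When libraries were scaled by the median of gene ratios in place of total UMIs, the median gene lay at 0.03 and the split was 516 higher and 725 lower. Differences below are on the total-UMI scale, so a group near -0.19 did not stand apart from the median gene.

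Mitotic genes lay nearer to their untreated level in mitotic cells than in other cells. Over the mitotic lists outside the score, the median log2 difference was -0.20 in mitotic cells (56 of 156 genes higher, 100 lower), beside -0.19 over all genes, and it turned to 0.02 under the other scaling. In the other cells it was -0.68 (18 of 148 higher, 130 lower), beside -0.13 over all genes. There 41 of the 148 genes were more than 2-fold lower, beside 669 of 9326 over all genes. The common cut asks the same summed score of the mitotic cells of each library, so this contrast between the classes is a description and its cause was not tested.

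TOP2A, the topoisomerase that untangles sister chromatids, was at 675, 606, 674, 684 and 693 CPM in mitotic cells and 124, 132, 136, 88.5 and 211 CPM in other cells. CDK1, the kinase of cyclin B, was at 434, 375, 388, 403 and 525 CPM against 114, 108, 94.9, 56.3 and 173 CPM. MKI67, the coat protein of mitotic chromosomes behind the Ki-67 stain, was at 425, 330, 326, 249 and 313 CPM against 139, 123, 85.6, 31.9 and 56.4 CPM. Between the 72 h libraries the log2 difference of TOP2A was 0.02 in mitotic and -0.62 in other cells, and that of MKI67 was -0.39 and -1.42. PTTG1, the securin that holds separase, was at 711, 738, 1265, 1375 and 2147 CPM in mitotic cells and 381, 240, 406, 143 and 515 CPM in other cells, so its log2 differences were 0.12 and -1.51.

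Some members of the mitotic lists were lower in mitotic cells of the 72 h inhibitor library all the same. Kinetochore genes had a median of -0.39 and condensin genes of -0.43, and both stayed negative under the other scaling, at -0.17 and -0.21. SPC25, a subunit of the NDC80 complex that binds microtubules, was at 163, 123, 129, 39.6 and 52.7 CPM, a log2 difference of -1.70. SPC24, its partner, was at 47.9, 33.1, 36.5, 11.2 and 19.98 CPM, also -1.70. ZWINT, a kinetochore linker, was at 152, 99.2, 78.2, 26.5 and 37.2 CPM, a difference of -1.56. ESPL1, the separase that cuts cohesin, was at 19.3, 14.6, 14.04, 4.06 and 5.06 CPM, a difference of -1.79. These 4 genes were also lower in recovery than in either untreated library.

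The one mitotic-list gene more than 2-fold higher was PLK2, a stress-induced Polo-like kinase with roles outside mitosis, at 230, 237, 150, 519 and 114 CPM in mitotic cells and 220, 245, 212, 436 and 121 CPM in other cells. Cohesin genes had a median of 0.18 in mitotic cells. Medians of the cyclin and kinase (-0.07), checkpoint (-0.13), spindle (-0.11), anaphase (-0.11) and cytokinesis (-0.18) groups turned positive under the other scaling, so no direction is given for them.

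**Figure D4:**
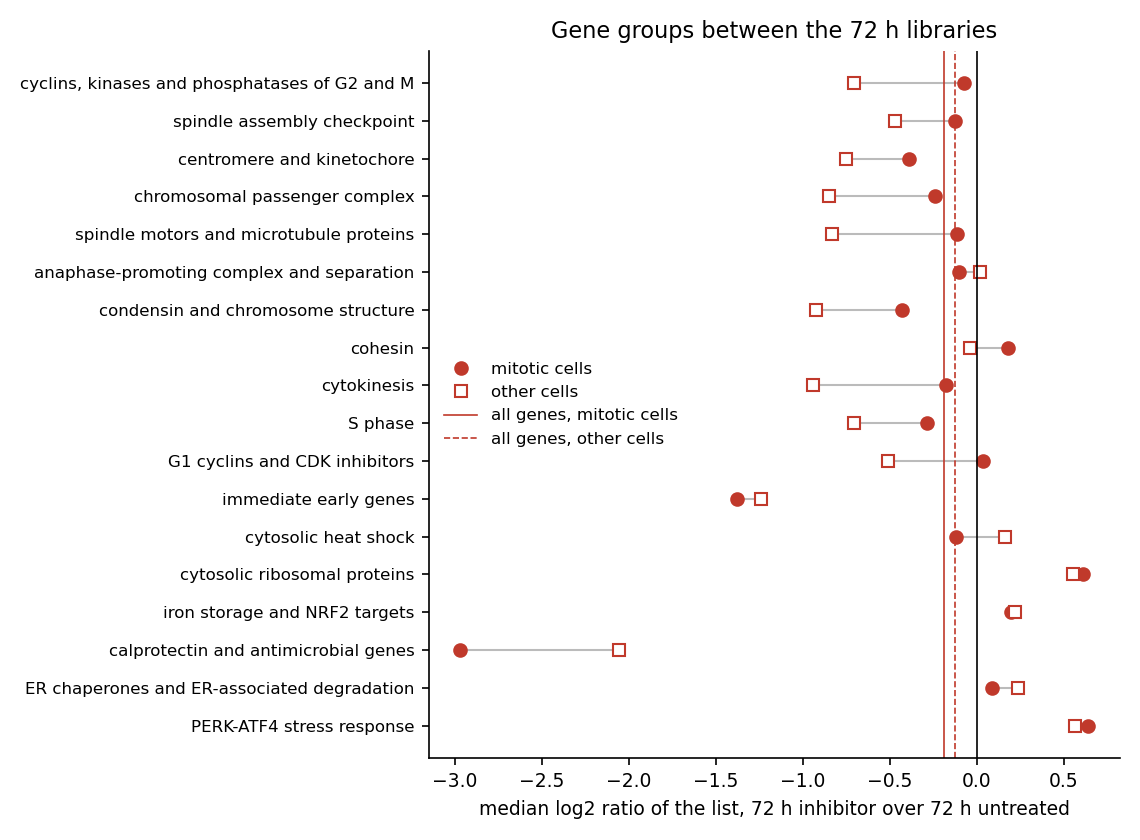
Median log2 ratio of each gene group, 72 h inhibitor over 72 h untreated (x axis), in mitotic cells (filled circles) and other cells (open squares), with the median of all genes as a solid and a dashed line. The mitotic lists together, not drawn, had medians of -0.20 in mitotic cells and -0.68 in other cells. Under median-of-ratios scaling the cyclin, checkpoint, spindle, anaphase, cytokinesis and heat shock medians of mitotic cells turn positive. The cohesin median of other cells does so too, as do the cholesterol medians of both classes, which are not drawn.

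Some cycle genes were higher in mitotic cells and lower in other cells after 72 h of inhibitor. DTL, a substrate receptor that directs CDT1 for degradation, was at 7.24, 9.36, 11.3, 28.7 and 29.4 CPM in mitotic cells and 52.4, 52.4, 30.5, 18.1 and 41.1 CPM in other cells. Its log2 difference between the 72 h libraries was 1.35 in mitotic cells and -0.75 in other cells, 2.10 apart (counting interval 1.71 to 2.49). CDCA7, a chromatin protein of S phase, was at 9.73, 12.99, 9.75, 27.5 and 19.0 CPM against 37.5, 42.6, 28.8, 22.8 and 29.8 CPM, 1.83 apart. FBXO5, the inhibitor of the anaphase-promoting complex also called EMI1, was at 32.6, 41.7, 38.7, 67.1 and 136 CPM against 40.4, 34.2, 27.5, 15.0 and 67.6 CPM, 1.66 apart. CDT1, the replication licensing factor, was higher in both classes, at 31.2, 24.8, 28.0, 75.8 and 56.4 CPM against 76.6, 74.7, 51.9, 64.8 and 80.8 CPM. In the untreated libraries DTL, CDCA7 and CDT1 were lower in mitotic than in other cells, and after 72 h of inhibitor they were higher.

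The S phase list as a whole did not share that pattern. Its median in mitotic cells was -0.29 (12 of 34 higher, 22 lower), against -0.71 in other cells. RRM2, the ribonucleotide reductase subunit, was at 196, 143, 148, 52.1 and 132 CPM in mitotic cells and 189, 175, 116, 16.2 and 80.0 CPM in other cells. HELLS, a chromatin remodeller, was at 47.0, 33.9, 30.8, 9.36 and 16.7 CPM against 77.6, 75.3, 50.7, 22.1 and 23.7 CPM. Over all genes, 214 of 9022 (2.37%) had mitotic and other-cell differences more than 2-fold apart, and 0 were more than 2-fold in opposite directions. With 77 cells in 1 of the 2 sums, the spread between cells adds to the counting intervals given.

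The genes named next had 20 CPM or more and the same direction against the 0 h library too, and some genes of lower level had larger ratios. GADD45G, a growth-arrest gene that binds CDK1, was at 7.29 CPM in mitotic cells of the 72 h untreated library and 373.9 CPM after 72 h of inhibitor, 51.3-fold higher (41.6 to 63.9), and 34.8-fold higher in other cells. PDK4, a mitochondrial kinase induced when fatty acids are burned, went from 1.84 to 29.7 CPM, 16.1-fold (10.2 to 26.4). SNHG12, a host gene of small nucleolar RNAs, went from 19.5 to 268 CPM, 13.8-fold in mitotic and 6.54-fold in other cells. ANKRD10 went from 66.1 to 366 CPM, 5.54-fold (5.07 to 6.05) against 2.35-fold. GDF15, a secreted stress cytokine, went from 1.995 to 30.6 CPM. A single cell gave 21.4% of its 98 UMIs, and with the 95th percentile as the cut, which leaves 15 mitotic cells there, its log2 difference of 3.94 became 0.34. EPB41L4A-AS1, NDRG1, BBC3, GPNMB and WHAMM completed the 10 higher genes of the naming rule.

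MYC, the proliferation transcription factor, was at 81.8, 91.8, 61.1, 198 and 31.3 CPM in mitotic cells, a log2 difference of 1.69 between the 72 h libraries against 0.83 in other cells. The PERK-ATF4 list, the arm of the unfolded protein response that acts through translation, had a median of 0.64 in mitotic cells (20 of 23 higher, 7 more than 2-fold) and 0.56 in other cells. DDIT3, the transcription factor CHOP, was at 18.1, 66.6, 53.4, 154 and 373 CPM in mitotic cells and 18.6, 72.4, 60.7, 216 and 444 CPM in other cells. HSPA5, the ER chaperone BiP, was at 79.5, 93.7, 135, 243 and 751 CPM against 74.2, 72.7, 128, 344 and 850 CPM. Both were highest in recovery in either class. All 30 ribosomal protein genes were higher in both classes, with medians of 0.61 and 0.55.

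ACACA, which encodes an acetyl-CoA carboxylase, was at 36.9, 49.5, 49.96, 22.8 and 26.2 CPM in mitotic cells and 44.0, 63.3, 58.9, 33.2 and 33.8 CPM in other cells. FASN, the fatty acid synthase, was at 70.5, 58.4, 72.3, 34.6 and 74.7 CPM against 78.4, 64.2, 79.1, 39.5 and 106 CPM. Both were lower after 72 h of inhibitor than in the 72 h untreated library, ACACA by 1.13 and FASN by 1.06 on the log2 scale in mitotic cells, and by 0.83 and 1.00 in other cells. The fatty acid synthesis list had a median of -0.36 in mitotic and -0.35 in other cells.

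Of 8 calprotectin and antimicrobial genes, 6 were lower in mitotic cells after 72 h of inhibitor, 5 of them more than 2-fold, and 2 were higher. Their median was -2.97 in mitotic and -2.06 in other cells. DEFB1, a defensin, was more than 2-fold higher, from 56.5 to 127 CPM in mitotic and from 79.0 to 456 CPM in other cells. S100A8, a calprotectin subunit, was at 825, 618, 1588, 12.2 and 720 CPM in mitotic cells and 899, 769, 1823, 35.7 and 889 CPM in other cells. It was 130-fold lower (95.4 to 184) in mitotic and 51.1-fold lower in other cells. S100A9, its partner, went from 10960 to 607 CPM, 18.1-fold lower (17.3 to 18.9), against 10.0-fold in other cells. AGR2 was represented by 3 UMIs after 72 h of inhibitor, 22.2-fold lower with an interval of 7.52 to 108. S100A7, FGFBP1, EDN1, KRT4, PI3, MALL and CCN2 completed the 10 lower genes of the naming rule. Mitochondrially encoded genes had a median of -1.48 in mitotic and -0.92 in other cells. Under median-of-ratios scaling 3 of 13 were higher and 10 lower in each class. Summed over this list in thinned cells, median UMIs per 10,000 went from 584 to 282 in mitotic cells. In other cells they went from 624 to 332, so the classes lay closer by the sum than by the gene median. Immediate early genes, which respond to growth factors, had a median of -1.38 in mitotic and -1.24 in other cells. In mitotic cells 11 of 17 were more than 2-fold lower.

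**Figure D5:**
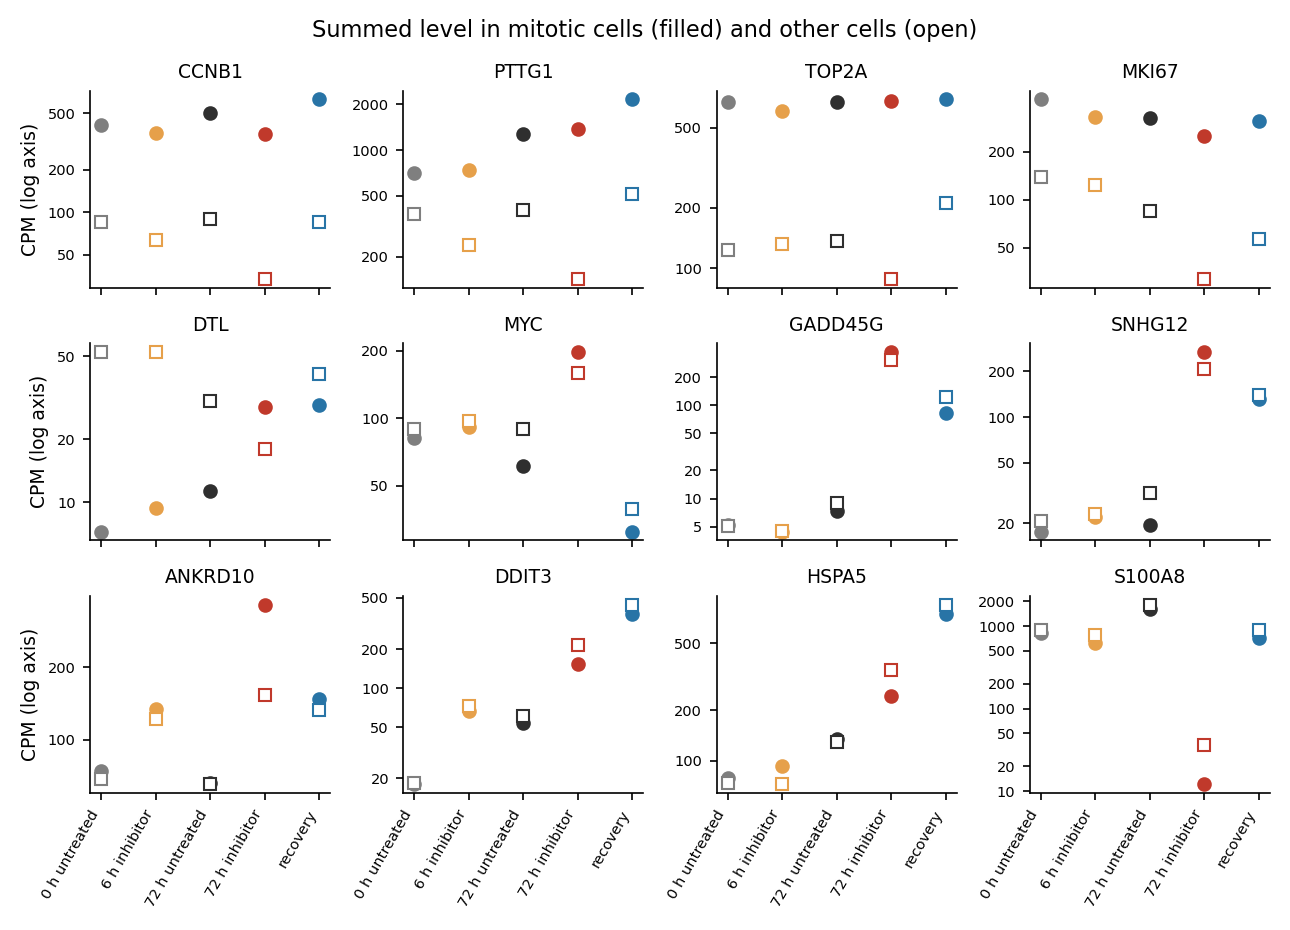
Level in CPM (y axis, log) of named genes in the 5 libraries (x axis), summed over mitotic cells (filled) and other cells (open), 1 panel per gene. CCNB1, PTTG1, TOP2A and MKI67 lie higher in mitotic cells of every library (CCNB1 at 360 to 628 against 33.7 to 89.9 CPM), while DDIT3 and HSPA5 are highest in recovery in both classes.

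After 6 h of inhibitor, genes of the PERK-ATF4 list were among those higher in mitotic cells than at 0 h. Of 9054 genes, 2.24% (203) were more than 2-fold higher and 0.243% (22) lower. Against the 72 h untreated library the same cells had 218 higher and 419 lower. Between 6 h of inhibitor and 0 h, 180 genes were more than 2-fold higher and 11 lower in other cells. The median gene lay at 0.07. The PERK-ATF4 list had a median of 0.83 in mitotic cells (21 of 24 higher, 10 more than 2-fold) and 0.90 in other cells. The same list had a median of 0.64 between the mitotic cells of the 2 untreated libraries. STC2, a secreted glycoprotein of that response, went from 8.10 to 42.9 CPM (5.30-fold), CHAC1, which degrades glutathione, from 5.82 to 22.7 CPM (3.90-fold), and DDIT3 was 3.67-fold higher. KCNQ5 (4.25-fold), GRB10 (4.14-fold) and SAMD4A (3.76-fold) were the others that the naming rule gave, which takes genes at 20 CPM or more and no clone-style names.

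Heat shock genes were lower in mitotic cells at 6 h, with a median of -0.29 and 12 of 13 lower. HSPA1A, the inducible HSP70, went from 195 to 74.7 CPM (2.61-fold lower) and HSPA1B from 32.7 to 14.9 CPM (2.20-fold lower). TNFSF10, the death ligand TRAIL, went from 41.9 to 14.2 CPM (2.94-fold lower), and LY6D was 2.57-fold lower. Mitotic genes outside the score had a median of -0.07 (61 of 156 higher, 95 lower), and none passed 2-fold. IGFBP5 was 2.29-fold lower in mitotic cells, from 23.7 to 10.3 CPM, and at 13.4 CPM in other cells of both libraries. Only 3 of 8792 genes (0.0341%) had mitotic and other-cell differences more than 2-fold apart.

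Mitotic cells of the recovery library were compared with those at 72 h of inhibitor and, in a second comparison that shares the recovery library, with the 72 h untreated library. Against the inhibitor, 5.29% of 8712 genes were more than 2-fold higher and 5.26% lower, and the split of 461 and 458 moved to 552 and 362 under the other scaling. It moved the opposite way, to 468 and 835, with equal weight for each cell, and to 741 and 1083 with the 95th percentile as the cut. In other cells 452 of 8943 genes were more than 2-fold higher and 374 lower. Of 8464 genes, 150 (1.77%) had mitotic and other-cell differences more than 2-fold apart. In mitotic cells S100A8 was 59.2-fold higher, at 720 CPM, S100A7 14.7-fold and S100A9 12.9-fold. S100A8 was also higher in other cells of recovery than in those at 72 h of inhibitor. PLA2G2A, a secreted phospholipase, had 0 UMIs in the 77 mitotic cells and stood at 48.6 CPM in recovery. With the 0 counted as 3 UMIs over the group, its ratio was 51.9-fold, which is not a lower limit. CDKN1A, the CDK inhibitor p21, was at 7.81, 11.1, 13.97, 2.50 and 29.2 CPM in mitotic cells. After thinning, 1 of the 77 mitotic cells held a CDKN1A UMI (1.30%, exact binomial interval 0.0329 to 7.03), and 13.4% in recovery did. Shares of other cells were 3.18% after 72 h of inhibitor and 16.98% in recovery. GDF15 was 42.3-fold lower (21.4 to 95.3), a log2 difference of -5.40 that became -1.80 with the 95th percentile as the cut, and 1 cell gave 21.4% of its 98 UMIs after 72 h of inhibitor. ENC1 went from 97.7 to 10.7 CPM (9.15-fold lower), and AMOTL2 from 145 to 17.4 CPM (8.31-fold lower). PDK4 was 9.24-fold lower and IGFL2-AS1 8.32-fold lower.

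Against the 72 h untreated library, 3.55% of 9278 genes were more than 2-fold higher in recovery and 12.3% lower. The median gene lay at -0.24 and moved to 0.09 under the other scaling, which also turned the split of 329 higher and 1145 lower to 695 and 562. ER chaperone and degradation genes had a median of 0.66 (20 of 23 higher), and HSPA5 was 5.56-fold higher in mitotic and 6.62-fold in other cells. HERPUD1, of ER-associated degradation, went from 85.6 to 686 CPM. Cholesterol synthesis and uptake genes had a median of 0.60, with 8 of 21 more than 2-fold higher. MSMO1, a methylsterol oxidase, was at 35.9, 57.1, 35.5, 36.8 and 204 CPM in mitotic cells. These groups were thus higher in recovery than in the 72 h untreated mitotic cells, with shares of mitotic cells whose intervals overlapped.

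Single genes higher there were SERPINB3, a serpin, from 0.537 to 20.3 CPM (37.8-fold), MFSD2A, a lipid transporter, from 2.99 to 35.2 CPM (11.7-fold), GADD45G from 7.29 to 83.5 CPM (11.4-fold), PLA2G2A (9.88-fold) and BBC3, the death gene PUMA, from 5.68 to 47.3 CPM (8.32-fold). TIMP3 (9.71-fold), CCN2 (8.65-fold), EDN1 (8.22-fold) and SPRY4-AS1 (7.91-fold) were lower.

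Within the mitotic lists, whose median of -0.15 turned to 0.18 under the other scaling, some genes were higher in recovery and others lower. CDCA5, the cohesin protector sororin, was at 52.4, 49.8, 54.2, 98.9 and 194 CPM. FBXO5 was 1.81 higher on the log2 scale and CKS2, a CDK-binding protein, 1.06 higher, at 816, 632, 927, 1238 and 1931 CPM. ARHGEF39 was 1.48 lower, at 53.9, 34.3, 64.3, 15.3 and 23.0 CPM. Of 9056 genes, 30 (0.331%) had mitotic and other-cell differences more than 2-fold apart. DTL was not among them, with 1.38 in mitotic and 0.43 in other cells.

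The 2 untreated libraries, 72 h apart, also differed in their mitotic cells. Of 9317 genes, 5.92% were more than 2-fold higher at 72 h and 1.78% lower, more than the 2.24% and 0.243% between 6 h of inhibitor and 0 h. The split of 552 and 166 moved to 339 and 299 under the other scaling, and the median gene from 0.14 to -0.05. Mitotic genes had a median of 0.02 that turned to -0.17, and none of 157 passed 2-fold. S phase genes had a median of -0.40 (33 of 39 lower).

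AKR1C3, an aldo-keto reductase, went from 5.47 to 47.4 CPM (8.66-fold) and LEMD1 from 27.3 to 189.6 CPM (6.95-fold). NEURL3 was 8.21-fold and DMGDH 5.88-fold higher. KRT6A, a keratin of activated epithelium, went from 64.4 to 1.77 CPM (36.5-fold lower) and OLFML3 from 122 to 11.6 CPM (10.5-fold lower). DKK1 (22.3-fold), MMP7 (8.56-fold) and GAL (8.04-fold) were also lower. In other cells of the same libraries, 510 genes were more than 2-fold higher and 142 lower, and 14 of 9024 genes (0.155%) had mitotic and other-cell differences more than 2-fold apart.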

How the data were processed

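Per the submitters' processing notes, the authors used Cell Ranger 7.1.0 and GRCh38; the deposited matrices hold whole-number counts of UMIs for 36601 features, not normalized. Whether intronic reads were counted is not given in the sources used here, and columns of other samples were not present (0). The members and lists were chosen with earlier results of these data known. Cells were kept at 5000 UMIs, 1000 genes and 20% mitochondrial UMIs, and mitotic cells were those above the 90th percentile score of the 0 h untreated library. UMIs were summed per library and class and divided by total UMIs (CPM). A gene was measured at 10 CPM or more in either sum. Kept cells held 85197344 to 114332800 UMIs per library, and mitotic cells 3204392 to 14080121. Each group holds 1 library, so no count model was fitted. Shares have exact binomial intervals and ratios exact conditional intervals, at 95%. The interval of a difference between the classes is a normal approximation from the summed counts and does not cover the choice of the gene. Doublets were not removed.

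Named genes were the 8 score genes; 12 highest and 12 lowest with 1 sign in all 5 libraries, at 20 CPM or more; the 10 highest and 10 lowest between the 72 h libraries and 5 and 5 in the other 4 comparisons; the 5 and 5 most unequal between mitotic and other cells; up to 4 per list of 27 lists; and a short list of cycle, stress and lipid genes. A gene given by this rule is not reported here. Alternatives were another percentile, library or depth for the cut, other cell filters, cells of most UMIs left out, other scaling, weights and minimums, and the other untreated library. Members of 20000 or more UMIs were an alternative added after seeing the data. Python 3.11.15, numpy 2.4.6, pandas 2.3.3, scipy 1.17.1 and matplotlib 3.10.9 were used, and the scripts were tested on simulated data. Promoters came from the RefSeq table.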

Additional observations from a re-analysis of the deposited data

How the results depend on the processing

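No paired analysis was possible because each group holds 1 library. The 72 h inhibitor library had the lowest share of mitotic cells under every cut common to the 5 libraries. In the order 0 h untreated, 6 h inhibitor, 72 h untreated, 72 h inhibitor and recovery, the shares were 8.97%, 8.88%, 10.1%, 3.16% and 9.56% after thinning, 5%, 3.54%, 5.75%, 0.803% and 6.01% with the 95th percentile, and 8.89%, 8.78%, 10.02%, 3.27% and 9.82% with the cut from the 72 h untreated library. Limits of 10% mitochondrial UMIs or 10,000 UMIs, and dropping the 5% of cells of highest UMI count, moved no share beyond its interval.

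Counts of genes past 2-fold depended on the expression minimum, since a lower one lets in genes of few UMIs. With 50 CPM and with no minimum, mitotic against other cells gave 102 and 4657 genes at 0 h (188 as reported), 108 and 4724 at 6 h (191), 112 and 4507 at 72 h untreated (206), 158 and 8755 at 72 h inhibitor (426), and 99 and 5377 in recovery (201). Between mitotic cells the counts were 356 and 5421 for the 72 h libraries (1399), 66 and 2413 for 6 h against 0 h (225), 261 and 3971 for recovery against inhibitor (919), 393 and 5420 for recovery against 72 h untreated (1474), and 182 and 4027 for the untreated libraries (718). The 95th percentile, with fewer mitotic cells, gave 1372 within the 72 h inhibitor library, 2185 between the 72 h libraries and 1824 for recovery against inhibitor. The other untreated library as control gave 637 for 6 h (218 higher and 419 lower, against 203 and 22), 2244 for recovery (923 and 1321, against 329 and 1145) and 832 and 1115 after 72 h of inhibitor (against 291 and 1108).

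With that other control, 6 single-gene log2 differences changed sign: C20orf194 (0.32) and OLFML3 (-1.54) after 72 h of inhibitor, DMGDH (-0.55) and FBXL20 (-0.029) at 6 h, and MMP7 (-1.32) and OLFML3 (-2.28) in recovery. The cause was not tested. Over all alternatives, 637 values of single genes moved, 6 changed sign and 2147 did neither; with the other control, 69 moved and 31 did not. Of the values of gene-group medians, 111 moved and 2040 did not.

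Counting error limits the 72 h inhibitor mitotic cells most: their 3204392 UMIs come from 77 cells, so a level of 1 CPM is about 3 UMIs, and a few cells can carry a gene. Culture-to-culture spread is not known for any value.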

Other observations

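G1 cyclins and CDK inhibitors lay on both sides of 0 in mitotic over other cells, from -2.69 to 1.28 at 0 h, with median log2 ratios of -0.11, -0.09, 0.14, 0.24 and -0.07 in the order 0 h untreated, 6 h inhibitor, 72 h untreated, 72 h inhibitor and recovery. CCND1, the D-type cyclin, was higher in mitotic cells of each library, at 400, 361, 389, 295 and 268 CPM against 279, 279, 329, 232 and 206 CPM in other cells. CCNE1, a cyclin of S phase entry, was at 5.47, 5.30, 4.30, 7.49 and 12.04 CPM in mitotic cells and 35.0, 21.0, 16.3, 10.8 and 21.1 CPM in other cells. NEAT1, a long nuclear RNA, was lower in mitotic cells of each library, at 313, 580, 691, 863 and 1230 CPM against 443, 836, 1271, 1398 and 2193 CPM. TGFB2, a secreted growth factor, was also lower, at 103, 154, 93.5, 68.7 and 32.0 CPM against 154, 277, 155, 99.5 and 47.9 CPM.

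Of the genes that were less equal between the classes, TANC2, a scaffold protein, was at 14.4, 18.6, 26.6, 4.68 and 15.7 CPM in mitotic cells and 19.5, 23.8, 33.7, 19.7 and 28.7 CPM in other cells. Between the 72 h libraries its log2 difference was -2.50 in mitotic and -0.77 in other cells. ENC1, an actin-binding protein, was at 28.7, 29.8, 15.8, 97.7 and 10.7 CPM in mitotic cells and 21.3, 24, 16.3, 33.6 and 6.70 CPM in other cells.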
